A study of Homo sapiens with 6 samples.

Results

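The genes that oxidise ethanol and its product acetaldehyde were examined in hiPSC-CMs. The 10 genes were chosen by symbol, as alcohol dehydrogenases (ADH5, ADH1A, ADH1B, ADH4 and ADH6), the microsomal oxidase CYP2E1 and aldehyde dehydrogenases (ALDH2, ALDH1A1, ALDH1B1 and ALDH9A1). All 10 were found among the 21134 genes of the deposited series table. The 6 RNA libraries formed 3 groups. There were 2 libraries without treatment (control), 2 after 24 h in 100 mM alcohol (alcohol), and 2 after 24 h in 100 mM alcohol together with 1 μM losartan, a blocker of the angiotensin II receptor (co-treated). All libraries came from the line H9, known as an embryonic stem cell line although the labels describe induced pluripotent cells, and it was turned into cardiomyocytes with a GSK3 inhibitor, activin A and a Wnt inhibitor. Losartan without alcohol was not analysed here, so its effect without alcohol cannot be told apart. The labels number 2 replicates in each group without saying that they came from separate cultures, so p-values measure only the spread between these libraries, which may be technical.

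Ethanol is oxidised to acetaldehyde by alcohol dehydrogenases in the cytosol, by CYP2E1 in the endoplasmic reticulum and by catalase in peroxisomes. Aldehyde dehydrogenases then turn the reactive acetaldehyde into acetate, with the mitochondrial enzyme ALDH2 as the main route. The dehydrogenases of both steps reduce NAD+ to NADH, and most of the ethanol taken in is oxidised in the liver.

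Expected counts, which are the authors' estimates of reads per gene, summed to between 4898287 and 5051448 per library. At this depth a gene listed at 0 can still hold up to 3 counts, and this floor covers counting error only. The defining cardiomyocyte markers were present, with TNNT2 at 3190 to 3730 FPKM over the 6 libraries, FPKM being counts scaled for the length of the gene and the size of the library. All 10 cardiomyocyte markers were above 3 counts, and their summed FPKM was 25600 to 26000 in control, 19100 to 25300 in alcohol and 21800 to 24000 in co-treated cells, lowest in alcohol replicate 2. The largest part of this sum was MYL7, the atrial myosin light chain, with 14500 and 16200 FPKM in control and 9320 FPKM in alcohol replicate 2. In the same library MYH6 (737 FPKM, against 717 FPKM in control replicate 2) and NKX2-5 (151 FPKM) were at their highest of the 6. RYR2 and PLN lay above both control libraries there. The 10 markers of liver and endoderm summed to 43.2 to 45.2 FPKM in control, 55.5 to 57.9 FPKM in alcohol and 54.8 to 56.0 FPKM in co-treated cells. Most of this was AFP and APOA1, while HNF4A had at most 2 counts in any library. The sum of the 10 fibroblast and epicardial markers was 428 to 475, 492 to 526 and 483 to 530 FPKM in the same order of groups, and that of the 4 smooth muscle markers was 1690 to 1930, 722 to 1450 and 991 to 1040 FPKM. The 4 endothelial markers summed to 5.77 to 6.84, 7.36 to 8.48 and 8.9 to 10.5 FPKM in that order, which was mostly KDR (3.70 and 4.00 FPKM in control, 5.18 to 7.70 FPKM with alcohol), while PECAM1, CDH5 and TEK overlapped between control and the libraries with alcohol. Their part in the results was not tested. The 4 pluripotency markers summed to 11.1 to 12.4, 12.2 to 15.1 and 10.4 to 19.1 FPKM. Fewer cells of a type and less RNA per cell cannot be told apart in these bulk libraries.

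The 10 genes fell into 2 separate levels. ADH5, ALDH9A1, ALDH2 and ALDH1B1 lay between 14.2 and 75.8 FPKM in every library, and the other 6 genes lay at 1.03 FPKM or below in every library. Since the upstream sequences of the 2 sets differed in base composition, the stretch of 250 bases before the annotated start was read from RefSeq (GRCh38.p14) for the members that matched the promoter table, which were 9, with ALDH2 the exception. The expressed genes ADH5 and ALDH1B1 are shown beside ADH1B, ALDH1A1 and CYP2E1, which were near 0. Sequences are written 5′ to 3′ on the gene's strand, and capitals mark CG dinucleotides and the motif TATAAA.
ADH5 (chr4:99088789-99089038, minus strand): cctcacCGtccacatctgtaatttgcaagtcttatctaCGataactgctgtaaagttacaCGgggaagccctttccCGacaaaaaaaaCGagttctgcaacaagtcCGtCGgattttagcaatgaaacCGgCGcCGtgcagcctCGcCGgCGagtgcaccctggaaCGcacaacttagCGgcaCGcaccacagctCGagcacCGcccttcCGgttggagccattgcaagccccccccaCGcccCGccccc
ALDH1B1 (chr9:38392452-38392701, plus strand): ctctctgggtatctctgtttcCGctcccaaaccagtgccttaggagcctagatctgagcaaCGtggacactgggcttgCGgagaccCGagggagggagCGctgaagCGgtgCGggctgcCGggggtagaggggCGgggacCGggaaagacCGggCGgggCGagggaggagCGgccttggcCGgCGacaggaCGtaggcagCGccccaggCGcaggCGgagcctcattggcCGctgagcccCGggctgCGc
ADH1B (chr4:99321402-99321651, minus strand): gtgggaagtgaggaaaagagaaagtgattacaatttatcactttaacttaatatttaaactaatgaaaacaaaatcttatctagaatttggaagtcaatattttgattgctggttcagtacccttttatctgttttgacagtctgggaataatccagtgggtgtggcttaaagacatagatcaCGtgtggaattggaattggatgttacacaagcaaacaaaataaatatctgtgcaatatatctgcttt
ALDH1A1 (chr9:72953054-72953303, minus strand): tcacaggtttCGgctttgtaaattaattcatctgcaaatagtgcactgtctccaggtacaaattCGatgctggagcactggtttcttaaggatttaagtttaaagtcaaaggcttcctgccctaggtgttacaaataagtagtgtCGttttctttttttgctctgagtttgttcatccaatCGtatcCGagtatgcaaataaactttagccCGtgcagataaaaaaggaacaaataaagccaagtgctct
CYP2E1 (chr10:133527113-133527362, plus strand): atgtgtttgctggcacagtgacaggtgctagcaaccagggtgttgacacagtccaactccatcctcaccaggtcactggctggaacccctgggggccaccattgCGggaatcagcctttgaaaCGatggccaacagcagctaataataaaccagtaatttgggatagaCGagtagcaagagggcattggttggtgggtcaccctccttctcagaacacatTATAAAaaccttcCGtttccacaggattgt

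CG dinucleotides, the sites of DNA methylation, numbered 21 before ADH5, 21 before ALDH9A1 and 23 before ALDH1B1. Before the 6 genes near 0 there were 1 (ADH1A, ADH1B, ADH4 and ADH6), 4 (CYP2E1) and 6 (ALDH1A1). For comparison, the median was 20 over the 11765 promoters of genes that passed the expression filter and 7 over the 3679 promoters of listed genes under 1 FPKM that did not. The lower and upper quartiles were 13 and 28 for genes that passed, and 3 and 19 for those that did not. These ranges overlap, so the gap among the genes examined here is not general. ADH1A, ADH1B, ADH4 and ADH6 lie with ADH5 in 1 cluster on the same chromosome and are not independent examples. The G and C content was 58.0% for ADH5, 67.2% for ALDH9A1 and 70.4% for ALDH1B1. It was 31.6% to 38.4% for the other genes except CYP2E1, with 50.4%. The motif TATAAA, searched on both strands, was found before CYP2E1, where it began 30 bases upstream of the start, and before ADH4 on the opposite strand. It was found in 11.1% of all 27303 promoters of the same length. The share was 5.67% for genes that passed the expression filter and 12.9% for listed genes under 1 FPKM that did not. No measurement of methylation or of factor binding was made in these libraries, and these matches describe letters only.

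**Figure D1:**
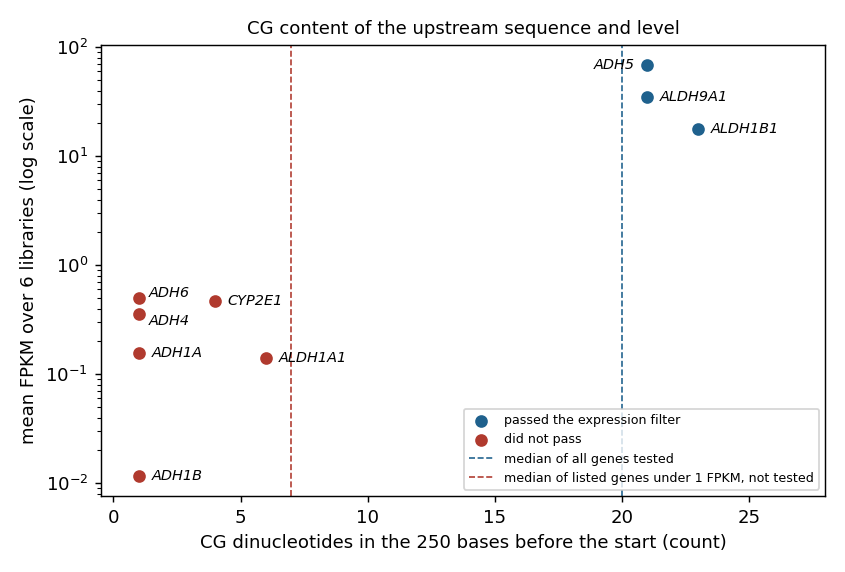
Number of CG dinucleotides in the 250 bases before the start (horizontal axis) against the mean FPKM over the 6 libraries (vertical axis, log scale) for the 9 genes with a RefSeq promoter, with each point a gene. ADH5, ALDH9A1 and ALDH1B1 have 21 to 23 CG dinucleotides and a mean of 17.6 to 68.5 FPKM, while the other 6 genes have 1 to 6 and a mean of at most 0.497 FPKM; dashed lines give the medians of 20 and 7 for genes that passed the expression filter and for listed genes under 1 FPKM that did not.

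ADH5 encodes the glutathione-dependent alcohol dehydrogenase, which mainly oxidises the formaldehyde adduct of glutathione, reduces S-nitrosoglutathione and has a low affinity for ethanol. It was the most abundant of the 10 genes. ADH5 (NCBI Gene 128, chr4:99070978-99088788) had 66.9 and 65.5 FPKM in control, 68.4 and 64.4 FPKM in alcohol, and 70.2 and 75.8 FPKM in co-treated cells. The control and alcohol libraries overlapped, and both co-treated libraries lay above the other 4. In control its mean exceeded that of 95.2% of the genes with any FPKM. ADH5 held 97.9% to 99.0% of the summed FPKM of the 5 alcohol dehydrogenases in each library.

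The classical alcohol dehydrogenases of the liver, ADH1A, ADH1B and ADH4, and the less studied ADH6 lie beside ADH5 in 1 cluster. With ADH1C and ADH7, which are not listed in the series table, the cluster holds 7 genes in 364 kb on the minus strand of chromosome 4 (chr4:99070978-99435342). ADH1B (NCBI Gene 125, chr4:99304971-99321401) had 1 count in alcohol replicate 1 and 0 in the other 5 libraries. ADH1A (NCBI Gene 124, chr4:99276369-99290985) had 1 and 3 counts in control, 1 and 0 in alcohol, and 1 in each co-treated library. ADH4 (NCBI Gene 127, chr4:99123658-99144297) had 4.11 and 2.23 counts in control, 3.02 and 3.03 in alcohol, and 2.99 and 6.04 in co-treated cells. None of these 3 separated the groups at this depth, since their counts were at or close to the floor everywhere. ADH1A, ADH1B and ADH1C are close paralogs whose reads the authors' counting could divide, which adds uncertainty to values this small.

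ADH6 (NCBI Gene 130, chr4:99202639-99219246) had 1 and 2 counts in control, 3 and 4 in alcohol, and 7 and 4 in co-treated cells. Both control libraries lay below the other 4. Among genes that passed the expression filter, which ADH6 did not, 14.8% had all 4 libraries with alcohol above both control libraries. The summed counts were 3, 7 and 11, and the ratio of rates was 2.36 for alcohol against control (exact 95% interval 0.54 to 14.2) and 3.73 for co-treated cells against control (0.984 to 20.8), with both intervals covering counting error only. These intervals include 1, so no difference was detectable at this depth.

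The level differed sharply between the 2 sides of ADH5 on chromosome 4. METAP1, the neighbouring protein-coding gene on its other side, had 36.2 to 48.3 FPKM, while ADH4, whose start lies 55.5 kb from that of ADH5, had at most 0.60 FPKM. The long noncoding RNA gene LOC100507053 starts 69 bases from the start of ADH5 on the opposite strand, within the stretch printed above, and its span crosses ADH4, ADH6 and ADH1A. It had 2.60 to 3.12 FPKM. The sources used here do not state whether counting used strand, so reads in ADH4, ADH6 and ADH1A cannot be told apart from reads of this antisense gene where their spans overlap.

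CYP2E1, the cytochrome P450 that oxidises ethanol in the endoplasmic reticulum and is known to accumulate in the liver with ethanol intake, was near the floor. CYP2E1 (NCBI Gene 1571, chr10:133527363-133539123) had 1 and 3 counts in control, 4 and 5 in alcohol, and 2 and 8 in co-treated cells, or 0.12 to 0.96 FPKM. Both alcohol libraries lay above both control libraries, while co-treated replicate 1 lay between the control libraries and co-treated replicate 2 was the highest. Among genes that passed the expression filter, which CYP2E1 did not, 24.7% had both alcohol libraries above both control libraries. The ratio of rates was 2.28 for alcohol against control (exact 95% interval 0.636 to 10.1) and 2.54 for co-treated cells against control (0.733 to 11.1). Both intervals cover counting error only, include 1 and reach past 10, so at this depth neither a difference nor its absence was detectable.

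ALDH1A1, the cytosolic aldehyde dehydrogenase that also makes retinoic acid, was likewise near 0. ALDH1A1 (NCBI Gene 216, chr9:72900671-72953053) had 0 and 5 counts in control, 2 and 0 in alcohol, and 0 and 3 in co-treated cells. In each group 1 library was at 0, so the groups overlapped.

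**Figure D2:**
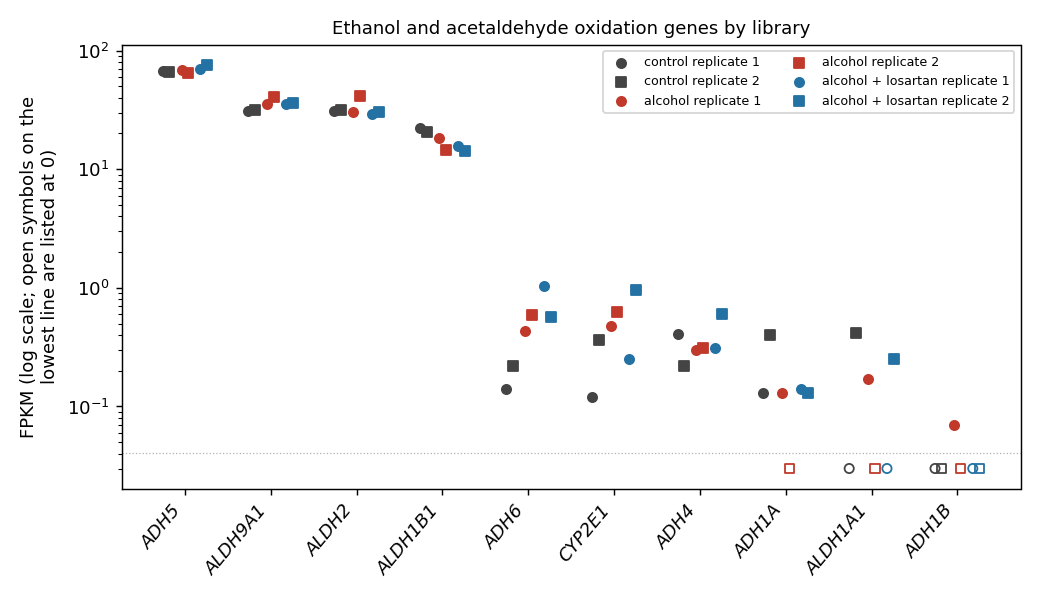
FPKM (vertical axis, log scale) of each of the 10 genes in each of the 6 libraries, coloured by group, with circles for replicate 1 and squares for replicate 2; open symbols on the lowest line are values listed at 0. ADH5, ALDH9A1, ALDH2 and ALDH1B1 lie between 14.2 and 75.8 FPKM in every library, and the other 6 genes lie at or below 1.03 FPKM.

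The acetaldehyde-oxidising genes with a measurable level were ALDH9A1, ALDH2 and ALDH1B1. ALDH2, the mitochondrial enzyme with the highest affinity for acetaldehyde (NCBI Gene 217, chr12:111766933-111817532), had 30.8 and 31.5 FPKM in control, 30.3 and 41.4 FPKM in alcohol, and 29.3 and 30.1 FPKM in co-treated cells. Alcohol replicate 2 was the highest library, and the other 5 lay within 29.3 to 31.5 FPKM. ALDH9A1, which oxidises the aldehyde precursors of γ-aminobutyrate and carnitine as well as acetaldehyde (NCBI Gene 223, chr1:165662216-165698562), had 30.7 and 31.3 FPKM in control, 35.4 and 40.8 FPKM in alcohol, and 35.7 and 36.3 FPKM in co-treated cells. All 4 libraries with alcohol lay above both control libraries. ALDH1B1, a second mitochondrial enzyme close in sequence to ALDH2 (NCBI Gene 219, chr9:38392702-38398661), had 22.1 and 20.6 FPKM in control, 18.4 and 14.5 FPKM in alcohol, and 15.6 and 14.2 FPKM in co-treated cells. All 4 libraries with alcohol lay below both control libraries.

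Ordered by mean FPKM over the 6 libraries, ADH5 (68.5) was followed by ALDH9A1 (35.0), ALDH2 (32.2), ALDH1B1 (17.6), ADH6 (0.497), CYP2E1 (0.465), ADH4 (0.358), ADH1A (0.155), ALDH1A1 (0.14) and ADH1B (0.0117). ADH5 was above ALDH9A1 and ALDH1B1 was below ALDH2 in every library. The order of ALDH9A1 and ALDH2 depended on the group. Their ratio was 0.997 and 0.991 in control and 1.17 and 0.985 in alcohol, where their levels overlapped, and 1.22 and 1.2 in co-treated cells, where ALDH9A1 (35.7 and 36.3 FPKM) lay above ALDH2 (29.3 and 30.1 FPKM) without overlap. Among the 6 genes near 0, the ranges of neighbours in the order overlapped.

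The question of the first comparison was whether the genes that handle ethanol differed after 24 h of alcohol. Among these genes 4 passed the expression filter, ADH5, ALDH9A1, ALDH2 and ALDH1B1, and they are not a random draw, since the filter kept those with enough counts. edgeR's quasi-likelihood test with Benjamini-Hochberg adjustment over 14926 genes called 0 of the 4 between alcohol and control, against 0.067% of all genes (0.0603% higher and 0.0067% lower). At an unadjusted p under 0.05 there were 2 of the 4, against 11.0% of all genes. DESeq2 called 0 of the 4 and 72 of all 14926 genes. It gave 1 of the 4 an unadjusted p under 0.05, against 890 of all 14926 genes. An exact two-sided permutation test of 2 against 2 libraries cannot go below p = 0.333, and the adjusted p-values depend on a spread estimated across genes.

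ALDH1B1 averaged 21.4 ± 1.10 FPKM in control against 16.5 ± 2.77 FPKM in alcohol (SD, n = 2 each). The log2 fold change by edgeR was −0.41 (standard error 0.16, 95% interval −0.74 to −0.07, unadjusted p = 0.0211, adjusted p = 0.346), so the call was not made. Without alcohol replicate 2 the log2 fold change was −0.21, and without alcohol replicate 1 it was −0.62. ALDH9A1 averaged 31.0 ± 0.403 FPKM in control against 38.1 ± 3.87 FPKM in alcohol (SD, n = 2 each), with a log2 fold change of 0.26 (standard error 0.12, 95% interval 0.0007 to 0.51, adjusted p = 0.449 from edgeR). The FPKM of the groups did not overlap in 2 of the 4 genes, against 42.4% of the 14926 genes tested, of which 17.7% had both alcohol libraries below both control libraries, as ALDH1B1 did, and 24.7% had both above, as ALDH9A1 did. Alcohol replicate 2 had the lowest ALDH1B1 and the highest ALDH9A1 and ALDH2 of the alcohol libraries. It was the lowest of the 6 libraries in 4 of the 10 cardiomyocyte markers (MYL7, MYL2, ACTN2 and TTN). Its summed smooth muscle markers (722 FPKM) were also the lowest. It was the highest of the 6 in MYH6 (737 FPKM) and NKX2-5 (151 FPKM), and RYR2 and PLN lay above both control libraries there. The part of these markers in the values was not tested.

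ALDH2 averaged 31.2 ± 0.523 FPKM in control against 35.9 ± 7.89 FPKM in alcohol (SD, n = 2 each), with a log2 fold change of 0.17 (standard error 0.14, 95% interval −0.14 to 0.48, adjusted p = 0.726 from edgeR). Its direction rested on alcohol replicate 2, since the log2 fold change was −0.03 without that library. ADH5 averaged 66.2 ± 0.969 FPKM in control against 66.4 ± 2.83 FPKM in alcohol (SD, n = 2 each), with a log2 fold change of −0.03 (standard error 0.12, 95% interval −0.29 to 0.22, adjusted p = 0.95 from edgeR). For ADH5 the interval therefore excludes a change of 2-fold in either direction, while its sign turned in the limma fits on log2 FPKM and without control replicate 1 or alcohol replicate 2.

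The second comparison asked whether losartan added to alcohol moved these genes away from their level in alcohol. edgeR called 0 of the 4 genes tested, against 0.0134% of all genes (0.0067% higher and 0.0067% lower). At an unadjusted p under 0.05 there were 0 of the 4 by edgeR or by DESeq2, against 5.55% of all genes by edgeR and 351 of 14926 by DESeq2. The log2 fold changes of co-treated against alcohol cells were 0.13 for ADH5 (95% interval −0.13 to 0.38), −0.09 for ALDH9A1 (−0.34 to 0.17), −0.27 for ALDH2 (−0.58 to 0.04) and −0.16 for ALDH1B1 (−0.50 to 0.18). ALDH2 had the smallest unadjusted p of these, 0.0784, with an adjusted p of 0.900 from edgeR, and its log2 fold change was −0.08 without alcohol replicate 2. That of ALDH1B1 was 0.06 without alcohol replicate 1. The FPKM of the groups did not overlap for ADH5, higher in co-treated cells, and for ALDH2, lower, against 32.3% of all genes tested (18.0% higher and 14.3% lower). These intervals do not show that the genes were alike in the presence and absence of losartan.

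In the third comparison co-treated cells were set against the same control libraries as in the first, so these comparisons are not independent. edgeR called 0 of the 4 genes, against 0.362% of all genes (0.214% higher and 0.147% lower). DESeq2 called 0 of them and 123 of all 14926 genes. At an unadjusted p under 0.05 there was 1 of the 4 by edgeR, against 12.6% of all genes, and the same 1 by DESeq2, against 1031 of all 14926 genes. That gene was ALDH1B1, which averaged 14.9 ± 1.01 FPKM in co-treated cells (SD, n = 2), and edgeR's fold was 0.675 of control. On the log2 scale the fold change was −0.57 (standard error 0.16, 95% interval −0.91 to −0.23, unadjusted p = 0.0031, adjusted p = 0.136 from edgeR). Over 14 alternative settings the log2 fold change lay between −0.63 and −0.49 and the adjusted p between 0.0736 and 0.506. For ADH5 the log2 fold change was 0.09 (95% interval −0.16 to 0.35), for ALDH9A1 0.17 (−0.09 to 0.43) and for ALDH2 −0.11 (−0.42 to 0.21). The groups did not overlap in 4 of the 4 genes, with ADH5 and ALDH9A1 higher and ALDH2 and ALDH1B1 lower in co-treated cells, against 43.4% of all genes tested (27.1% higher and 16.3% lower). All 4 libraries with alcohol lay below both control libraries in 8.39% of the genes tested, ALDH1B1 among them, and above both in 14.8%, ALDH9A1 among them. The smooth muscle markers ACTA2, TAGLN and MYH11 also lay below both control libraries in all 4 libraries with alcohol, while CNN1 overlapped (279 and 417 FPKM in control, 177 to 422 FPKM with alcohol), and their part in the values of ALDH1B1 was not tested.

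**Figure D3:**
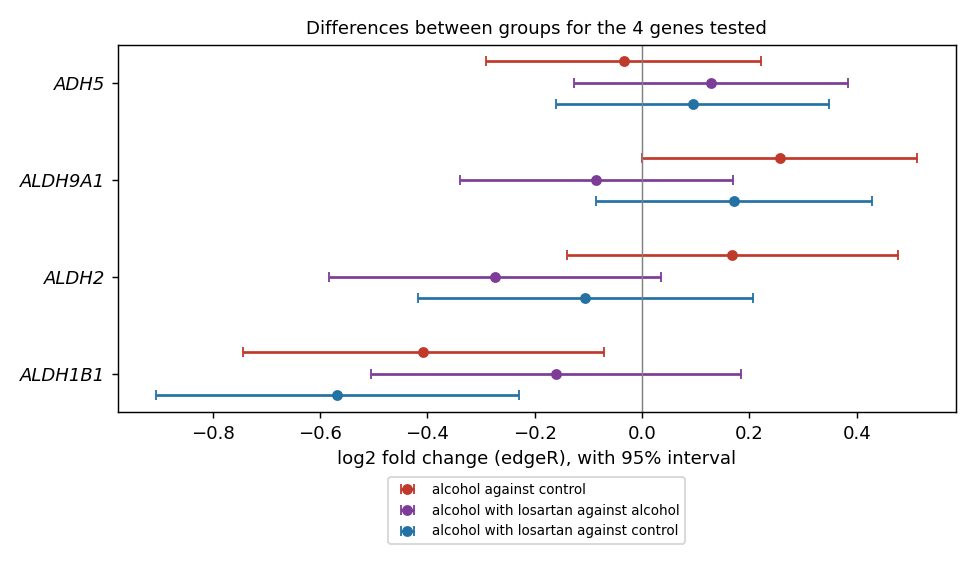
log2 fold change from edgeR (horizontal axis) of the 4 genes that passed the expression filter in each of the 3 comparisons, with points for estimates and bars for 95% intervals. The intervals of ALDH1B1 lie below 0 against control with alcohol (−0.74 to −0.07) and with alcohol and losartan (−0.91 to −0.23), that of ALDH9A1 with alcohol lies just above 0 (0.0007 to 0.51), and the other 9 include 0; none of these was called after adjustment over all genes.

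ALDH2 and ALDH1B1 encode mitochondrial enzymes of the same reaction, and their ratio within a library does not depend on the scaling between libraries. ALDH1B1 stood at 0.719 and 0.653 of the ALDH2 level in control, 0.609 and 0.351 in alcohol, and 0.533 and 0.470 in co-treated cells (FPKM ratios). All 4 libraries with alcohol were below both control libraries, with alcohol replicate 2 the lowest and alcohol replicate 1 close to control replicate 2. In alcohol replicate 2 ALDH2 was also at its highest (41.4 FPKM). The ratio, and the shares that follow, use the same values as above and are not separate results. For single genes, 8.39% of those tested had all 4 libraries with alcohol below both control libraries. The share over ratios of other gene pairs was not computed. Of the summed FPKM of the 4 aldehyde dehydrogenases, ALDH1B1 made up 24.6% to 26.5% in control, 15.0% to 21.9% in alcohol and 17.5% to 19.3% in co-treated cells. The sum itself was 83.6 and 83.8 FPKM in control, 84.2 and 96.8 FPKM in alcohol, and 80.6 and 80.9 FPKM in co-treated cells. The share of ALDH9A1 was 36.7% and 37.3% in control and 42.0% to 44.9% in the 4 libraries with alcohol.

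**Figure D4:**
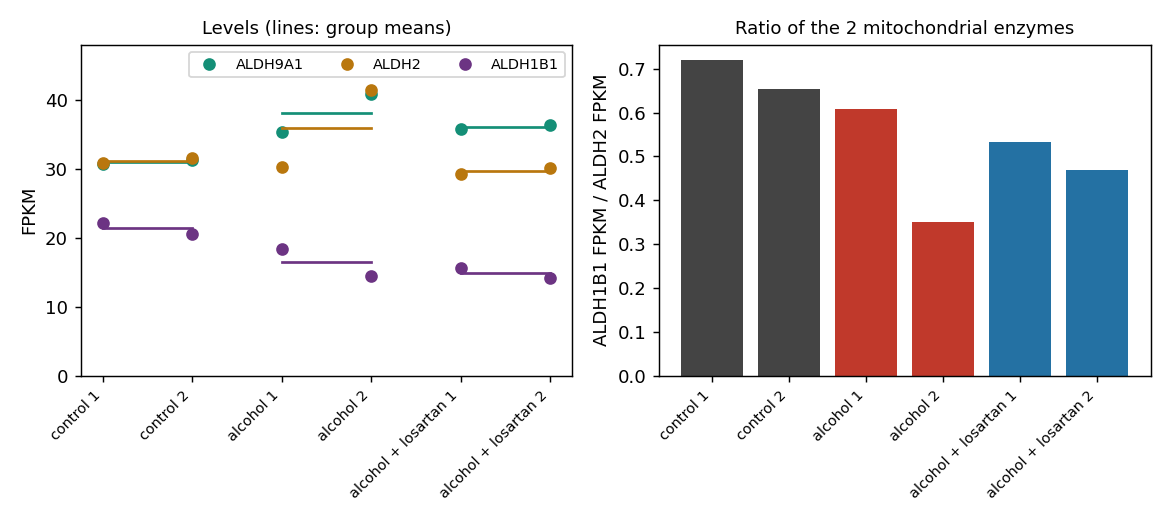
Left, FPKM of ALDH9A1, ALDH2 and ALDH1B1 in each library, with lines at the group means; right, bars from 0 of the ratio of ALDH1B1 to ALDH2 FPKM in each library. ALDH1B1 is at 20.6 and 22.1 FPKM in control and at 14.2 to 18.4 FPKM in the 4 libraries with alcohol, and the ratio is 0.653 and 0.719 in control and 0.351 to 0.609 in the 4 libraries with alcohol.

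The rest of the aldehyde dehydrogenase family was read as a list of 15 genes, all of them listed, of which 10 passed the expression filter. edgeR called 0 of the 10 in each of the 3 comparisons. Between alcohol and control 1 of the 10 was higher and 1 lower at an unadjusted p under 0.05 from edgeR, against 11.0% of all genes in both directions. The median log2 fold change was −0.06, against −0.0033 over all genes tested. Between co-treated and alcohol cells 1 was higher and 0 were lower at that level, against 5.55% of all genes, with a median of 0.05, against 0.0023 over all genes. Between co-treated cells and control 2 were higher and 0 lower, against 12.6% of all genes, with a median of −0.05, against −0.0017. The most abundant gene of the family was ALDH3A2, the fatty aldehyde dehydrogenase of the endoplasmic reticulum, with 66.9 and 55.6 FPKM in control, 64.0 and 42.7 FPKM in alcohol, and 60.1 and 61.1 FPKM in co-treated cells. ALDH4A1, a mitochondrial enzyme of proline breakdown, had 25.1 and 25.2 FPKM in control, 33.5 and 36.8 FPKM in alcohol, and 37.7 and 28.1 FPKM in co-treated cells. All 4 libraries with alcohol lay above both control libraries for ALDH4A1, as in 14.8% of all genes tested. Its log2 fold change for alcohol against control was 0.44 (standard error 0.14, adjusted p = 0.250 from edgeR).

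ALDH8A1, an enzyme of tryptophan breakdown, had 15.3 and 14.9 counts in control, 5.99 and 8.29 in alcohol, and 16.9 and 17.3 in co-treated cells. Both alcohol libraries lay below the other 4. Of all genes tested, 17.7% had both alcohol libraries below both control libraries. In 18.0% both co-treated libraries lay above both alcohol libraries. These comparisons use the same alcohol libraries and are not independent. The log2 fold change was −1.11 for alcohol against control (standard error 0.51, adjusted p = 0.452 from edgeR) and 1.26 for co-treated against alcohol cells (standard error 0.50, adjusted p = 0.862 from edgeR), so neither passed. ALDH1A2 and ALDH1A3, which make retinoic acid, had at most 8 counts and 1 count in any library.

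**Figure D5:**
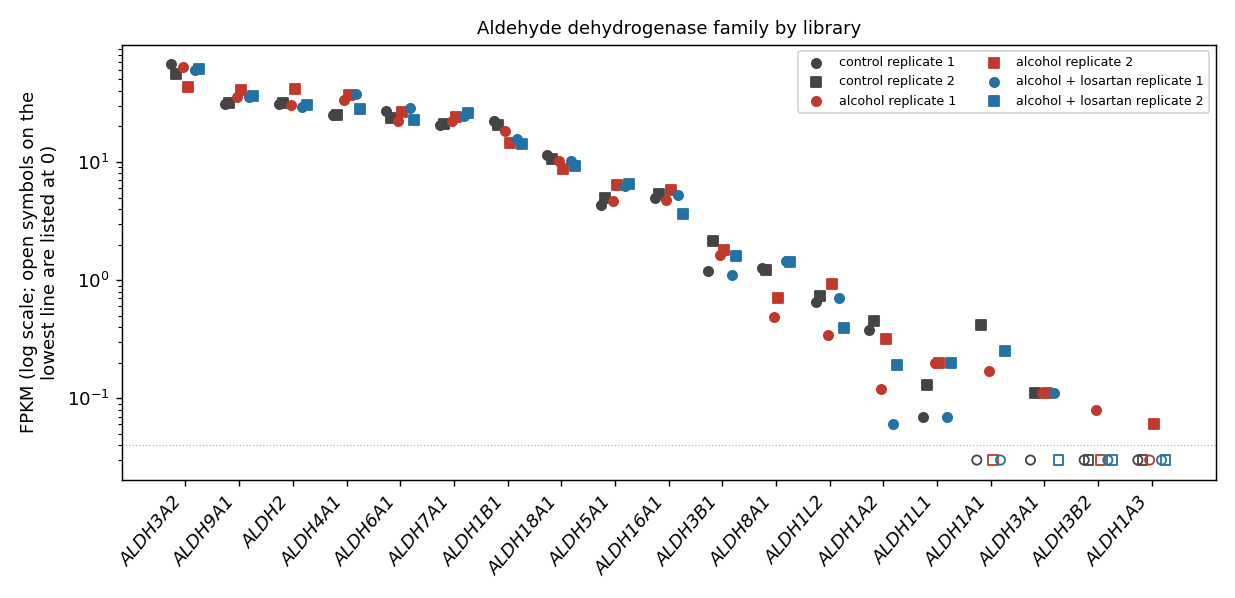
FPKM (vertical axis, log scale) of the 19 aldehyde dehydrogenase genes in each library, ordered by mean level, coloured by group with circles for replicate 1 and squares for replicate 2; open symbols on the lowest line are listed at 0. ALDH3A2 (42.7 to 66.9 FPKM) leads the family, ALDH9A1 and ALDH2 follow, ALDH1B1 (14.2 to 22.1 FPKM) is seventh, and ALDH1A1 is among the genes near 0.

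Catalase and the microsomal system offer other routes of ethanol oxidation. Of CAT, POR, CYP1A2 and CYP3A4, 3 passed the filter and 0 were called in any comparison. Their median log2 fold change was 0.28 for alcohol against control, which is the value of POR, against −0.0033 over all genes tested. It was −0.125 for co-treated against alcohol cells, against 0.0023 over all genes. For co-treatment against control it was 0.157, against −0.0017. CAT, the peroxisomal catalase, had 11.2 and 11.4 FPKM in control, 14.5 and 16.9 FPKM in alcohol, and 13.2 and 15.9 FPKM in co-treated cells. All 4 libraries with alcohol lay above both control libraries for CAT, as in 14.8% of all genes tested. Its log2 fold change was 0.43 for alcohol (standard error 0.17, adjusted p = 0.353 from edgeR) and 0.32 for co-treatment against control (standard error 0.17, adjusted p = 0.456 from edgeR). POR, which passes electrons to cytochrome P450 enzymes, had 13.1 and 12.3 FPKM in control, 16.2 and 15.6 FPKM in alcohol, and 15.4 and 13.9 FPKM in co-treated cells, and its log2 fold change for alcohol was 0.28 (standard error 0.15, adjusted p = 0.531 from edgeR). CYP1A2 lay at 1.48 to 2.64 FPKM with overlapping groups, and CYP3A4 had at most 2.61 counts.

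Acetate is activated to acetyl-CoA by the ACSS enzymes. ACSS2, the cytosolic and nuclear enzyme, had 24.9 and 24.0 FPKM in control, 25.5 and 25.1 FPKM in alcohol, and 28.1 and 27.2 FPKM in co-treated cells. Its log2 fold change was 0.0053 for alcohol (95% interval −0.26 to 0.27, adjusted p = 0.995 from edgeR) and 0.13 for co-treatment against control (95% interval −0.13 to 0.39, adjusted p = 0.721 from edgeR). ACSS3 lay at 3.72 to 5.58 FPKM with overlapping groups, and the mitochondrial ACSS1 had at most 3 counts in any library. The medians of the 2 genes tested were 0.03 for alcohol and 0.07 for co-treatment against control. Over all genes tested they were −0.0033 and −0.0017.

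Of 8 genes of non-oxidative ethanol metabolism, UGT1A1 and UGT1A9 were not listed and 4 passed the filter, and edgeR called 0 in each comparison. The median log2 fold change was −0.02 for alcohol and −0.13 for co-treatment against control, beside −0.0033 and −0.0017 over all genes tested. SULT1A1, a sulfotransferase, had 22.8 to 30.1 FPKM, and PLD1, a phospholipase D that can form phosphatidylethanol, had 6.33 to 9.23 FPKM. SULT2A1, another sulfotransferase, had 1.05 and 1.37 FPKM in control, 0.37 and 0.52 FPKM in alcohol, and 0.63 and 0.41 FPKM in co-treated cells. The log2 fold change was −1.47 for alcohol against control (standard error 0.62, adjusted p = 0.406 from edgeR), on 3.66 to 13.7 counts per library.

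The NADH made by ethanol oxidation is reoxidised through the malate-aspartate and glycerol phosphate shuttles. All 10 shuttle genes passed the filter and 0 were called by edgeR in any comparison. Their median log2 fold change was −0.02 for alcohol and −0.03 for co-treatment against control, beside −0.0033 and −0.0017 over all genes tested. At an unadjusted p under 0.05 from edgeR, 1 of the 10 genes was lower in each of these comparisons, and 0 were higher. Of all genes, 11.0% reached that level for alcohol and 12.6% for co-treatment. The shuttle gene was MDH1, the cytosolic malate dehydrogenase, with 390 and 385 FPKM in control, 342 and 281 FPKM in alcohol, and 311 and 320 FPKM in co-treated cells. The log2 fold change was −0.36 for alcohol (standard error 0.14, adjusted p = 0.340 from edgeR) and −0.35 for co-treatment (standard error 0.14, adjusted p = 0.307 from edgeR). GOT1, the cytosolic aspartate aminotransferase, lay at 91.3 to 117 FPKM with overlapping groups. SLC25A13, a mitochondrial aspartate-glutamate carrier, had 14.4 and 13.6 FPKM in control and 16.3 to 18.4 FPKM in the 4 libraries with alcohol, with an adjusted p from edgeR of 0.592 for alcohol and 0.415 for co-treatment against control.

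For ADH5 and ALDH9A1, the most abundant of the genes tested, the genes with the most similar pattern of log2 CPM (counts scaled to library size) were sought over the 6 libraries among 6551 genes with a mean of at least 10 FPKM. ADH5 varied by only 0.28 on the log2 scale, and the most similar genes were FKBP15 (Pearson r = 0.991), C11orf58 (0.991), MPP5 (0.988), FAM92A1 (0.984) and ATP2C1 (0.980). ALDH9A1 varied by 0.32, and the most similar genes were INTS6L (0.990), PHF21A (0.987), LRRC10 (0.987), NUB1 (0.985) and MRPL10 (0.984). These values describe 6 points that share libraries and depth. They were picked as the highest among 6551 genes and were not compared with unrelated genes, so they do not show shared regulation.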

How the data were processed

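Transcript levels were measured by RNA sequencing of 6 hiPSC-CM libraries, grouped by the treatment in the sample titles. For each gene and library the authors deposited the expected count (an estimate, not whole for 33.9% of values) and the FPKM, which is relative to gene length and library size. The submitters' processing notes list HISAT2 2.0.4, Bowtie2 2.2.5, RSEM 1.2.12 and hg38 without roles. Genes left out of a library's table were set to 0. The 10 members and the other gene lists were chosen with earlier results of these data known.

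Expected counts were rounded, filtered with filterByExpr, normalized with TMM and tested with edgeR 4.0.16 (quasi-likelihood F test, two-sided) in R 4.3.3, with the 6 libraries in 1 fit, Benjamini-Hochberg adjustment over 14926 genes and a threshold of 0.05. Dividing the absolute log2 fold change by √F gave its standard error, and 95% intervals used the t distribution of the fit. Intervals for low counts were exact (Clopper-Pearson). Totals were 4898287 to 5051448 counts per library. The fit was tested on simulated data with changes larger than those of the members tested. That simulation does not show whether smaller changes can be detected.

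Alternatives were DESeq2 1.42.0, limma 3.58.1 on log2(FPKM + 0.1) or log2(FPKM + 1), other count filters, RLE size factors in edgeR, a replicate block, fewer libraries, and TPM for the order of levels. All 10 members are named; other lists are named by the called genes, otherwise by the 2 most abundant genes and the 2 with the smallest p, with lists of up to 4 genes named whole. ALDH1A2, ALDH1A3, METAP1 and LOC100507053 were named after their values were seen. Coordinates come from RefSeq on GRCh38.p14, whose primary assembly is hg38, gene strands from GENCODE and promoter strands from RefSeq.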

Additional observations from a re-analysis of the deposited data

How the results depend on the processing

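Over 14 alternatives, 0 of the 4 genes tested were called in any of the 3 comparisons by edgeR, DESeq2 or limma. Without the expression filter all 10 members were tested and 0 were called. Of 168 values of log2 fold changes, 162 kept their direction and side of the threshold and 6 turned direction, none of them called; the cause was not tested. For ADH5 in alcohol against control the value was 0.0032 with limma on log2(FPKM + 1) and 0.0032 on log2(FPKM + 0.1), and −0.107 to 0.048 with 1 library left out. For ALDH2 in that comparison it was −0.0297 to 0.354, and for ALDH1B1 in co-treated against alcohol cells −0.358 to 0.055, with 1 library left out. For ALDH1B1 in alcohol against control leaving out 1 library gave −0.62 to −0.21. The order of the 10 genes was the same with TPM.

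The number of all genes called between alcohol and control was 10 (9 higher, 1 lower), and it became 72 with DESeq2 (38 higher, 34 lower), 26 with at least 10 counts in every library (20 higher, 6 lower), 2 without a filter, 2 with limma on log2(FPKM + 0.1), 0 on log2(FPKM + 1) (1545 at an unadjusted p under 0.05), 3 with only the libraries compared and 1 to 220 with 1 library left out (1 without alcohol replicate 2, 220 without alcohol replicate 1). Between co-treated and alcohol cells it was 2, and 5 with DESeq2, 0 with at least 10 counts in every library (778 at an unadjusted p under 0.05), 1 without a filter, 1 with limma on log2(FPKM + 1), 4 with only the libraries compared and 1 to 24 with 1 library left out (1 without co-treated replicate 2, 24 without alcohol replicate 1). Between co-treated cells and control it was 54, and 123 with DESeq2, 15 without a filter, 3 with limma on log2(FPKM + 0.1), 2 on log2(FPKM + 1), 158 with only the libraries compared and 2 to 184 with 1 library left out (2 without co-treated replicate 2, 184 without alcohol replicate 1). With the replicate number as a block it was 48, 5 and 136 in the 3 comparisons, and 0 of the members were called. The labels give same-numbered libraries only a number in common, and their deviations correlated over genes at 0.114, −0.0162 and 0.0412. Single genes could still move together, as MYL2 did (2140 and 863 FPKM in control, 2610 and 821 FPKM in alcohol, replicates 1 and 2). In co-treated cells MYL2 went the other way (2480 and 2860 FPKM). Whether same-numbered libraries shared a culture or a batch was not tested. Where a group is left with 1 library, that library is assumed to vary like the others. Depth limits the 6 genes near 0, whose intervals span several fold.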
